A study of Mus musculus with 2 samples.

Results

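Dense groups of LSD1 peaks are places where the peak caller reported many LSD1 peaks within a short stretch of chromosome. A dense group was a chain of at least 20 peaks in which each start lay no more than 50 kb after the one before it. The search covered 14 autosomes, all but chromosomes 4, 7, 8, 10 and 15. It found 9 groups with 330 peaks, out of 6906 peaks on these chromosomes and 11797 in the whole deposited list. The number depends on how the caller divided the signal. When peaks were first joined over gaps of at most 1 kb, 3 groups with 92 joined peaks were found. The 9 groups were chosen on the positions of peak starts. Their density, spacing, extent and covered share against the outside are therefore given as a description. Peak length and score did not enter the choice directly. The number and the length of peaks come from the same division of the signal by the caller, however. The contrast in length is therefore a description too.

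The data came from C2C12 cells, a mouse myoblast line, in which LSD1-bound chromatin was sequenced after immunoprecipitation (ChIP-seq) and compared with input chromatin. Both libraries carried the same treatment: growth in medium with 25 mM glucose and 10% FBS, then 48 h in 2% horse serum to start myogenic differentiation. Formaldehyde and disuccinimidyl glutarate served as crosslinkers, and the ChIP used a polyclonal antibody against LSD1. There was 1 library per arm, no undifferentiated sample and 1 peak list, so no value has replicate error, no test between groups was run, and read depth is unknown.

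LSD1, also called KDM1A, is an amine oxidase that takes methyl groups off lysine 4 of histone H3. It usually works inside corepressor complexes with CoREST and histone deacetylases. In muscle precursor cells it is known for a part in the switch to myogenic gene expression. It does not by itself recognise a DNA sequence in the way a transcription factor does, and partner proteins bring it to chromatin. The list is in mm9, and no sequence or annotation of that build was used here, so the groups are named by position and no gene or sequence is given for them.

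The 9 groups lay on 6 of the 14 chromosomes. Chromosome 13 held 3 of them, chromosome 5 held 2, and chromosomes 1, 3, 14 and 16 held 1 each, while 8 chromosomes held none. The largest was on chromosome 14 at chr14:43917005-44201712, with 66 peaks over 285 kb, or 13.9% of the peaks of that chromosome. The first chromosome 13 group, chr13:12833149-13104213, followed with 52 peaks over 271 kb. The second chromosome 13 group, chr13:65531509-65795781, held 39 peaks over 264 kb, and the third, chr13:66500759-66610847, held 31 peaks over 110 kb. The chromosome 3 group, chr3:93571426-93669101, was the most compact, with 35 peaks in 97.7 kb. The chromosome 16 group, chr16:3231576-3344880, held 32 peaks in 113 kb, and the chromosome 1 group, chr1:175840833-175962700, held 27 in 122 kb. On chromosome 5 the proximal group, chr5:14871086-15045888, held 25 peaks in 175 kb, and the distal one, chr5:26340766-26447101, held 23 in 106 kb.

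Together the groups spanned 1.54 Mb, 0.0881% of the span of the 14 chromosomes between their first and last peaks. They held 4.78% of the peaks there and 9.41% of the sequence that peaks covered. The mean density was 21.4 peaks per 100 kb inside the groups and 0.376 outside. Inside them it ran from 14.3 per 100 kb in the proximal chromosome 5 group and 14.8 in the second chromosome 13 group to 35.8 in the chromosome 3 group.

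**Figure D1:**
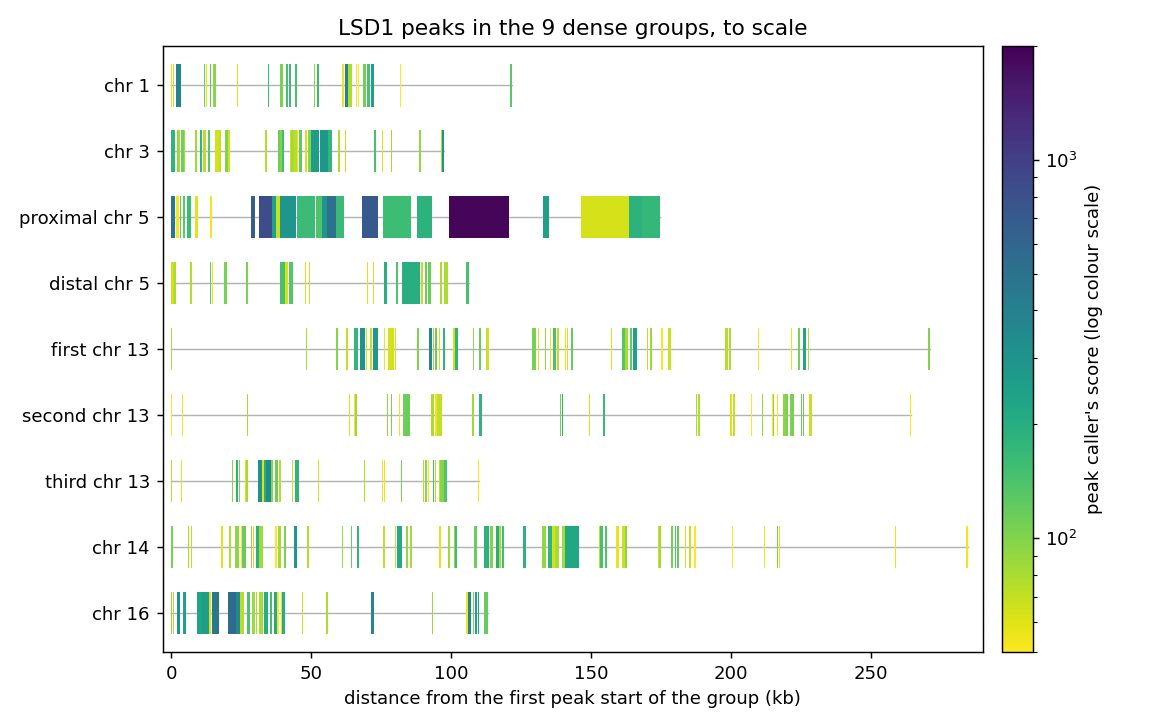
Each row is 1 dense group and each bar 1 LSD1 peak, drawn to scale by its distance in kb from the first start of the group and coloured by the peak caller's score (log colour scale). Broad bars fill 63.0% of the proximal chromosome 5 group, while the second chromosome 13 group is mostly empty between short peaks.

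LSD1 peaks in the groups were longer than those outside them. The median length was 671 bp (95% interval of the median 616 to 731 bp, n = 330 peaks) in the groups and 433 bp (428 to 438 bp, n = 6576) outside chains of 20 or more on the same chromosomes. These intervals come from order statistics and cover this list only. They take each peak as independent, which grouped peaks are not, and can be too narrow. Peaks with another start within 50 kb but in shorter chains had a median of 464 bp (455 to 473 bp, n = 3362). Without the proximal chromosome 5 group, a setting chosen after its values were seen, the median in the other 8 groups was 633 bp (590 to 690 bp).

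Long peaks made up a larger share of the groups than of the rest. Of the 330 group peaks 91 were 1 kb or longer, which is 27.6% (exact 95% interval 22.8 to 32.7%), while 4.63% of all peaks on the 14 chromosomes reached that length. Outside the groups it was 229 of 6576, or 3.48% (3.05 to 3.95%). A length of 2 kb or more was reached by 20 group peaks, 6.06% (3.74 to 9.21%), where 0.71% of all peaks on these chromosomes did so. Chromosome 5 held 70% of these 20. Without the proximal chromosome 5 group 7 remained, 2.30% of 305 peaks (0.928 to 4.67%). Of the 40 peaks on the 14 chromosomes that ranked among the 100 longest of the list, 18 lay in the groups, 12 of them in the proximal chromosome 5 group and 6 in the other 8. Of the 43 among the 100 highest scores, 4 lay in the groups (9.30%), all of them in the proximal chromosome 5 group. The groups held 4.78% of all peaks on the 14 chromosomes.

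The groups differed from each other in peak length. The proximal chromosome 5 group stood apart with a median of 2312 bp (interval 1488 to 5463 bp) and a range from 556 to 21363 bp. The chromosome 16 group came next at 1013.5 bp (605 to 1194 bp). The distal chromosome 5 and chromosome 3 groups followed at 783 bp (575 to 984 bp) and 780 bp (667 to 939 bp). Medians of 634.5 bp (564 to 759 bp) in the chromosome 14 group, 634 bp (533 to 785 bp) in the first chromosome 13 group and 582 bp (497 to 873 bp) in the chromosome 1 group lay close together. The third chromosome 13 group had 512 bp (389 to 670 bp) and the second 423 bp (382 to 598 bp). From the chromosome 16 group downwards, the intervals of neighbours in this order overlap, so the order of neighbours is not resolved. The intervals of the chromosome 16 and chromosome 3 groups lay wholly above that of the second chromosome 13 group. For the chromosome 16 group this rested on limits of 605 against 598 bp. The interval of the proximal chromosome 5 group overlaps no other. All of these intervals take neighbouring peaks as independent and can be too narrow, so their overlap or separation is a description and not a test.

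Against the outside peaks of their own chromosome, 8 of the 9 groups had the higher median length. In 7 the whole interval lay above the outside median. The intervals take neighbouring peaks as independent and can be too narrow, so the count of 7 is a description and not a test. The ratio was 5.29 for the proximal chromosome 5 group (2312 against 437 bp) and 2.30 for the chromosome 16 group (1013.5 against 441.5 bp). It was 1.84 on chromosome 3, 1.79 for the distal chromosome 5 group, 1.56 on chromosome 14, 1.48 for the first chromosome 13 group and 1.36 on chromosome 1. The third chromosome 13 group had 1.20, with an interval that included the outside median. In the second chromosome 13 group the ratio was 0.991, 423 against 427 bp. Its upper quartile was 698 bp, against 587 bp over all outside peaks, and 7 of its 39 peaks (17.9%, exact interval 7.54 to 33.5%) were 1 kb or longer.

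**Figure D2:**
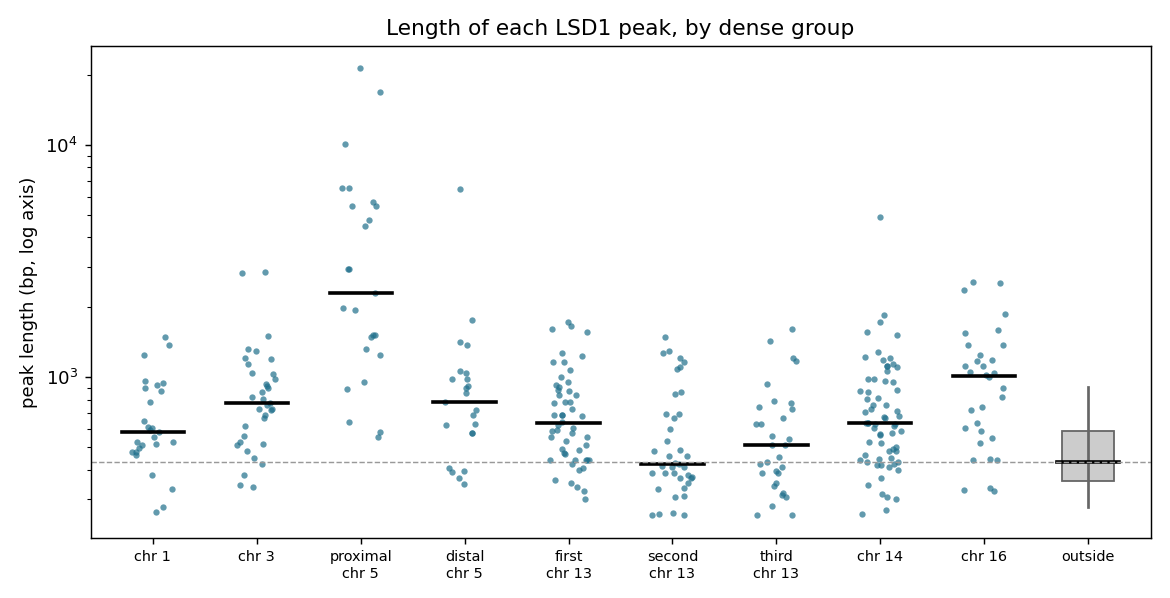
Points are single LSD1 peaks of each dense group on a log axis of length in bp, with black lines at the medians. The grey box gives the quartiles of the 6576 outside peaks, its line the 5th to 95th percentile, and the dashed line their median of 433 bp; only the second chromosome 13 group has its median below that line.

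The share of peaks of 1 kb or longer gave a similar order. It was 80% in the proximal chromosome 5 group (20 of 25, exact interval 59.3 to 93.2%) and 53.1% in the chromosome 16 group (17 of 32, 34.7 to 70.9%). The chromosome 3 group had 28.6% (10 of 35) and the distal chromosome 5 group 26.1% (6 of 23). Values between 11.1% (3 of 27, chromosome 1, interval 2.35 to 29.2%) and 21.2% (14 of 66, chromosome 14, 12.1 to 33.0%) were found in the other 5 groups. Peaks of 2 kb or more numbered 13 in the proximal chromosome 5 group, 3 on chromosome 16, 2 on chromosome 3 and 1 each in the distal chromosome 5 and chromosome 14 groups. The chromosome 1 group and all 3 groups of chromosome 13 had none, their longest peaks being 1489 to 1738 bp.

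Within the groups, LSD1 peaks followed each other at short distances, with larger steps between runs. The median distance between consecutive starts was 2025 bp (interval 1799 to 2322 bp, n = 321 distances), and the quartiles were 1123 and 4787 bp. In the shorter chains outside it was 13354 bp (n = 2146). The choice of long, tight chains bears on this difference, and it is no finding. From the end of 1 peak to the start of the next, the gap was under 1 kb in 159 of 321 cases (49.5%). It was under 100 bp in 53 (16.5%). In the outside chains the shares were 13.3% and 3.08%, and the choice of chains bears on these differences too. The smallest gap was 2 bp, and no peaks overlapped. A larger step, over 10 kb, occurred 45 times, so each group was broken into 3 to 10 pieces at that distance.

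Most groups shared a similar spacing. Their median lay between 1396.5 bp in the third chromosome 13 group (1013 to 3565 bp) and 2234.5 bp in the second (1373 to 4015 bp) for 7 of the 9. The groups on chromosome 5 were wider, with 4780.5 bp for the proximal (1986 to 9596 bp) and 4109 bp for the distal one (1500 to 6793 bp), but their intervals overlap those of the others. In the proximal group the peaks themselves take up much of that distance, since its median gap between peaks was 512 bp. In the distal group the median gap was 2382 bp, the widest of the 9.

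The groups differed widely in how much of their span the LSD1 peaks covered. The pooled value was 22.7% (351 kb of 1.54 Mb), against 0.193% in the rest of the 14 chromosomes. The choice of dense chains bears on this contrast with the outside, and it is no finding. Peaks covered 63.0% of the proximal chromosome 5 group, 32.7% of the chromosome 3 group and 29.7% of the chromosome 16 group. The distal chromosome 5 group had 22.9%, the chromosome 14 group 18.4%, the third chromosome 13 group 17.1%, the chromosome 1 group 15.1% and the first chromosome 13 group 14.2%. The second chromosome 13 group had 8.64%, at 14.8 peaks per 100 kb, against 14.3 in the proximal chromosome 5 group. A single peak carried 26.6% of the covered sequence of the distal chromosome 5 group, and without it the covered share was 16.8%. Without its own longest peak the proximal chromosome 5 group was still covered to 50.7%. For the other 7 groups the longest peak made up 4.53 to 9.35% of the covered sequence.

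**Figure D3:**
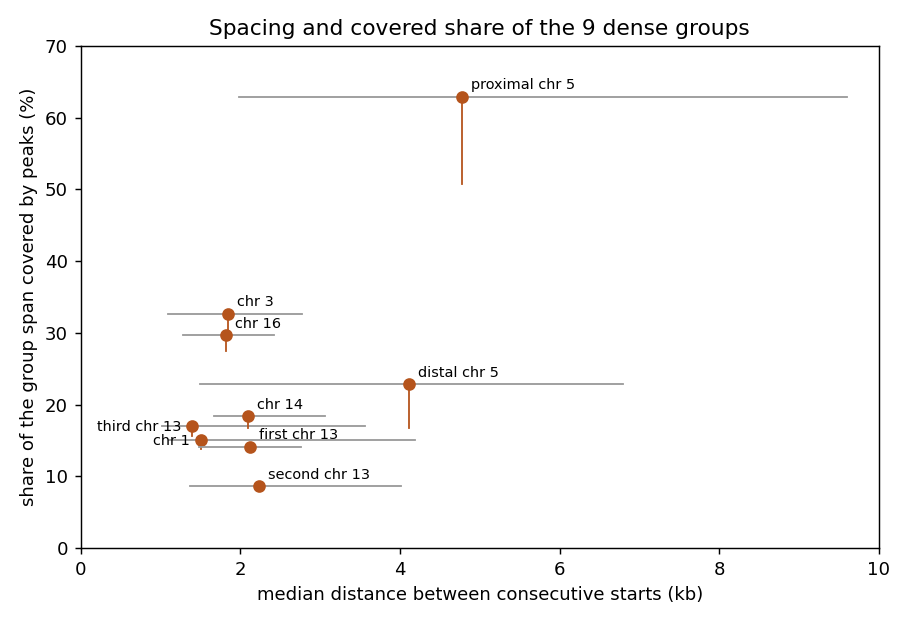
Each point is 1 dense group, with the median distance between consecutive starts in kb (grey line, 95% interval) against the share of its span covered by LSD1 peaks in percent. The brown line runs down to the share without the longest peak, and the proximal chromosome 5 group stays above all others at 50.7%.

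The scores, which rank peaks within the list on a scale that is not stated, differed less between the groups and the outside than the lengths did. The median score was 91.1 (interval 83.2 to 98.1) in the groups and 77.6 (76.6 to 78.9) outside. At or above the list's median of 78.25 were 204 of 330 group peaks (61.8%, exact interval 56.3 to 67.1%), where 50.1% of all peaks on the 14 chromosomes reached it. At or above the list's upper quartile of 119.41 were 102 (30.9%, 26.0 to 36.2%), where 25.2% did so overall. Set against outside peaks in shorter chains, whose median was 82.8 (81.2 to 85.0) and of which 29.3% reached the upper quartile, the difference was smaller. Without the proximal chromosome 5 group the median score was 86.2, the difference from the outside fell from 13.6 to 8.57, and 26.9% (22.0 to 32.2%) reached the upper quartile, close to the background. Among peaks at or above the list's median only, chained anew, the difference in median score between groups and outside was -0.96. With the outside median held fixed, the interval of the group median placed this difference between -10.96 and 24.17, so its sign is not resolved.

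The score intervals also take neighbouring peaks as independent and can be too narrow, so counts from them are a description. By them, only 3 of the 9 groups lay wholly above the outside median of their own chromosome. These were the proximal chromosome 5 group with a median of 172.2 (139.37 to 285.98, against 77.83), the chromosome 16 group with 149.27 (81.86 to 230.88, against 78.755) and the chromosome 14 group with 84.695 (77.5 to 99.44, against 74.21). The chromosome 1 group had 106.16 (70.28 to 145.71), with 11 of its 27 peaks at or above the upper quartile. Medians of 86.08 in the chromosome 3 group, 83.18 in the third and 79.53 in the second chromosome 13 group, and 80.08 in the distal chromosome 5 group had intervals that included the outside value. The first chromosome 13 group had the lowest median, 77.3 against 77.5 outside. In the second chromosome 13 group only 3 of 39 peaks reached the upper quartile (7.69%).

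**Figure D4:**
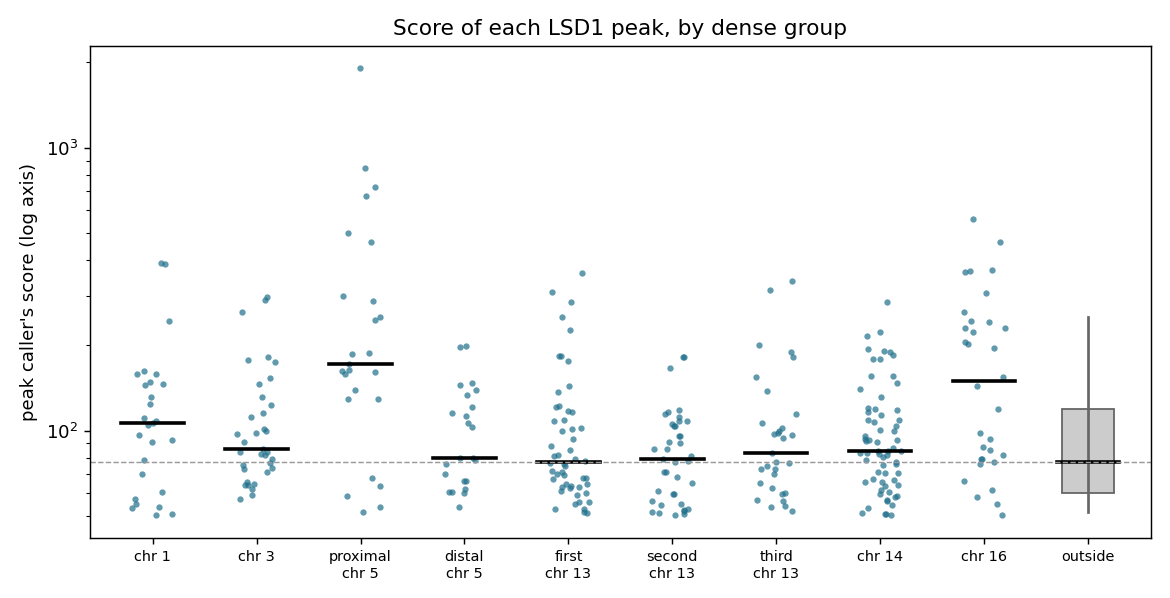
Points are single LSD1 peaks of each dense group on a log axis of the peak caller's score, with black lines at the medians. The grey box gives the quartiles of the 6576 outside peaks and its line the 5th to 95th percentile; the proximal chromosome 5 and chromosome 16 groups have medians of 172.2 and 149.27, and the other 7 lie between 77.3 and 106.16.

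Group peaks were longer than outside peaks of the same score class. With the list's score quartiles as limits, the median length in the lowest class was 378 bp (334 to 449 bp, n = 52) in the groups and 337 bp (331 to 341 bp, n = 1648) outside. In the second class it was 512 bp (470 to 619 bp, n = 74) against 386 bp, and in the third 631 bp (561 to 689 bp, n = 102) against 460 bp. In the top class it was 1126 bp (1005 to 1319 bp, n = 102) against 637 bp (627 to 648 bp, n = 1639). There 60.8% of group peaks were 1 kb or longer against 9.64% outside. The top class ran from 119.41 to 3100, so scores within it were not matched. The proximal chromosome 5 group supplied 20 of its 102 group peaks, and the comparison by class was not made without that group. The interval included the outside median in the lowest class only. Across the peaks of a group, length and score had a Spearman's rho between 0.39 in the proximal chromosome 5 group (n = 25) and 0.80 in the third chromosome 13 group (n = 31), against 0.70 over the outside peaks. Both values come from 1 calling step on the same reads, and rho is given as a description.

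The proximal chromosome 5 group held the longest peak of the whole list, chr5:14970388-14991750, 21363 bp long with a score of 1906.29, which ranked 5 in the list. Its next longest, chr5:15017679-15034563, was 16885 bp long but scored 63.68 (rank 8102). The third in length, chr5:14946723-14956773, had 10051 bp and scored 158.69. These 3 peaks made up 43.9% of the covered sequence of the group, and their scores ranged from 63.68 to 1906.29. At the left end of the group the peaks were shorter. Among the first 7 peaks, up to 14885617, the longest was 1523 bp and the scores ran from 51.64 to 463.89.

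Between 14902548 and 14932806 the same group had 9 peaks with gaps of 8 to 457 bp, so that 96.7% of these 30.3 kb were called as LSD1 peaks. Their scores ran from 67.86 to 846.43. Joined across gaps of up to 1 kb, the 25 peaks of the group became 11. Blocks of this kind were present in other groups at a smaller size. On chromosome 16, 10 peaks at chr16:3258775-3272427 formed a block of 13.7 kb covered to 74.5%. On chromosome 3, 5 peaks at chr3:93619254-93628841 formed one of 9.59 kb covered to 95.2%. In the distal chromosome 5 group 4 peaks made a block of 10.4 kb at chr5:26423141-26433502. The longest blocks of the chromosome 1 group and the second chromosome 13 group reached 4.32 and 4.08 kb.

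The chromosome 16 group had most of its LSD1 peaks at one end. Its first 56.3 kb held 24 of the 32 peaks, and within them lay its highest and longest peak, chr16:3252091-3254667, with 2577 bp and a score of 559.34 (rank 103). Peaks of 2550 bp (score 465.37) and 2379 bp (score 261.85) lay just before it. The group held 8.51% of the peaks of chromosome 16.

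In the chromosome 3 group the longest peaks lay side by side in the middle. The peaks chr3:93621565-93624390 and chr3:93624559-93627404 were 2826 and 2846 bp long and scored 261.75 and 288.26. The highest score, 295.35, belonged to the last peak of the group, chr3:93668187-93669101, which was 915 bp long. The group reached 9 starts in 10 kb, as did the third chromosome 13 group, the most in any of the 9.

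In the chromosome 14 group, the largest by number of peaks, high and long peaks were scattered. The highest score was 283.89 at chr14:43961116-43962179 (1064 bp), and the longest peak, chr14:44057762-44062673, had 4912 bp and a score of 222.43. Its largest piece without a step over 10 kb held 19 of the 66 peaks in 49.9 kb, the smallest share (28.8%) among the groups. After its last peak no other followed for 500.5 kb, and within 500 kb on both sides there were 9 peaks outside it.

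The chromosome 1 group had its best scores in peaks of unequal length. The highest, 392.31, was at chr1:175903137-175904009 (873 bp), and 387.6 belonged to the longest, chr1:175842722-175844220 (1499 bp). A piece of 38.1 kb held 16 of its 27 peaks. The distal chromosome 5 group had the lowest density of surrounding peaks, with 3 within 500 kb on either side. Its highest score was 199.21 at chr5:26416876-26417918 (1043 bp). Its longest peak, chr5:26423141-26429613, had 6473 bp at a nearly equal score of 197.65.

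The first chromosome 13 group lay 52.4 Mb from the second. Its highest score was 361.21 at chr13:12925255-12926485 (1231 bp), and its longest peak, chr13:12898387-12900124, had 1738 bp and a score of 176.57. A piece of 54.7 kb held 23 of its 52 peaks. In the second group the highest score, 181.55, belonged to a peak of only 413 bp, chr13:65671319-65671731, while the longest, chr13:65626704-65628192 (1489 bp), scored 71.64. In the third group a single peak was both, chr13:66534873-66536494, with 1622 bp and a score of 336.74. It was part of a block of 7 peaks over 7.97 kb.

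The second and the third chromosome 13 group lay in one longer stretch. They lay 705 kb apart, with 29 peaks between them. The nearest peaks on either side of the third group were 51.1 and 50.1 kb away. Around the second group they were 53.8 and 59.9 kb away. These gaps were close to the 50 kb limit, so the borders and sizes of both groups depended on it. From 65531509 to 66902988, over 1.37 Mb, chromosome 13 held 123 LSD1 peaks, 20.9% of its peaks. Of these, 70 were in the 2 groups and 37 in chains of 19 and 18 peaks that fell short of the limit. Around the third group, 50 further peaks lay within 500 kb, against 3 to 17 around the other 8 groups. In the flanks of those 8 there were 0.3 to 1.7 peaks per 100 kb, and 5 in those of the third chromosome 13 group. All but the flanks of the distal chromosome 5 group (0.3) lay above the outside mean of 0.376.

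Chains on either side of the limit of 20 peaks had overlapping values. Just inside it was the distal chromosome 5 group with 23 peaks. Just outside were 6 chains of 15 to 19 peaks. The chains of 19 at chr13:66319668-66449680 and chr17:38627929-38760348 had median lengths of 394 and 457 bp and median scores of 70.26 and 74.41. The chain of 18 at chr13:66774313-66902988 had 390 bp and 77.335. The chains of 16 on chromosome 1, at 87386294 to 87531479 and at 173451277 to 173511838, had 473.5 and 733 bp and scores of 79.965 and 90.69. The chain of 15 at chr3:92020429-92111371 had 1641 bp and a score of 92.83, with 11 of 15 peaks at 1 kb or longer.

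Next to the proximal chromosome 5 group, after 66.8 kb without a peak, lay a chain of 14 peaks at chr5:15112661-15222263 that the limit left out. Its median length was 3448.5 bp, its median score was 311.325, and peaks covered 75.4% of it, against 2312 bp, 172.2 and 63.0% in the group. It held the highest-scoring and longest outside peak on the 14 chromosomes, chr5:15112661-15129493 (16833 bp, score 1888.08). The other 4 of the 5 longest outside peaks, 9130 to 12221 bp, were in this chain too. The remaining 4 of the 5 highest-scoring outside peaks were of another kind, 671 to 993 bp long with scores of 1159.03 to 1655.84. They lay at chr3:37704336-37705328, chr3:130757051-130758042, chr1:130340904-130341574 and chr17:16355374-16356244, alone or in chains of 3.

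Over all peaks of the 14 chromosomes, median LSD1 peak length went up with the number of peaks in the chain, but the step at 10 to 19 peaks depended on 2 chains. The median length was 410 bp (405 to 417 bp) for the 3214 peaks with no other start within 50 kb. It was 457 bp (447 to 466 bp) in chains of 2 to 4 peaks, 489 bp (473 to 519 bp) in chains of 5 to 9, 515 bp (445 to 611 bp) in chains of 10 to 19, and 671 bp in the dense groups. The share of 1 kb or longer went from 2.52% over 3.36 and 4.95% to 24.4% and 27.6%. The value of 24.4% in chains of 10 to 19 rested on the chains of chromosome 3 and chromosome 5 just described. Those had 23 of the 31 long peaks, and without them, a setting chosen after the values were seen, it was 8.16% (8 of 98, exact interval 3.59 to 15.5%) with a median length of 440.5 bp. Median scores were 73.4, 82.6, 86.1, 82.1 and 91.1 in the same order.

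**Figure D5:**
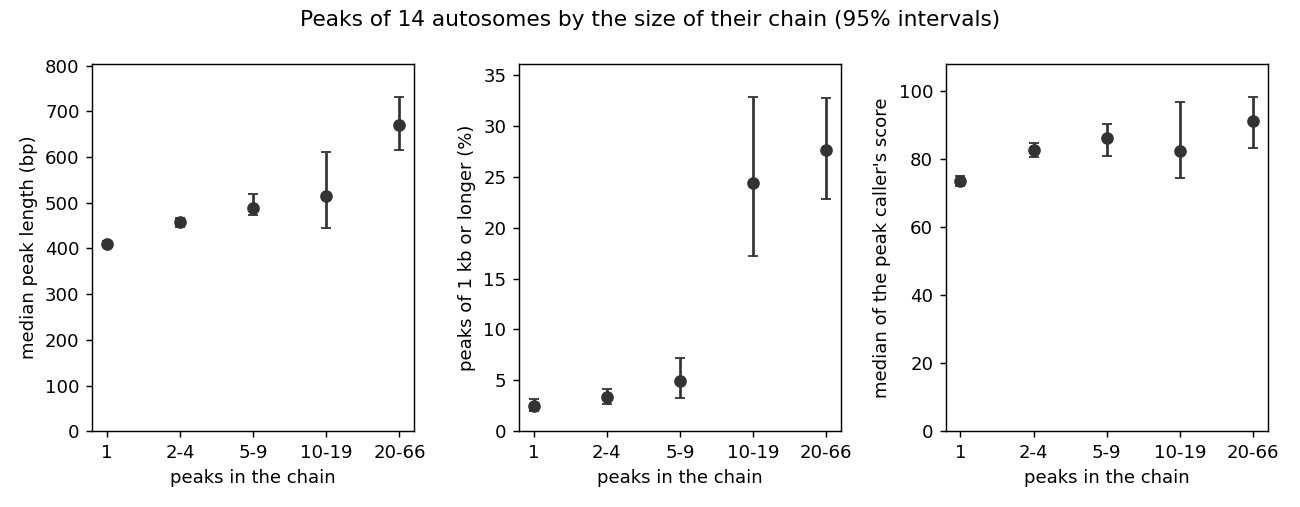
LSD1 peaks of the 14 chromosomes in classes by the number of peaks in their chain, with the median length in bp, the share of 1 kb or longer in percent and the median score; bars are 95% intervals that take each peak as independent. The share of long peaks is 2.52 to 4.95% up to chains of 9 and 27.6% in the dense groups.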

How the data were processed

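Per the submitters' processing notes, reads were aligned with BWA to mm9; no version is named. Per the file headers, the authors called peaks with MACS in Galaxy. The deposited list compares 1 LSD1 ChIP library with 1 input library and gives each peak a position and a score. Its version, settings, filters and the scale of the score are not stated in those sources. Per the labels' protocols, library fragments measured 170 to 500 bp.

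Starts were chained within 50 kb on each chromosome, and chains of at least 20 peaks were kept. Positions are 1-based. Medians carry order-statistic 95% intervals and shares exact Clopper-Pearson ones, which cover counting error only. Named peaks are the highest-scoring and longest of each group and the 5 highest and longest outside. The groups and lists were chosen with earlier results of these data known. Chaining was tested on simulated data with planted groups. Other distances, minimum sizes, a score limit, joining of peaks and leaving out chromosomes were tried. Tools were scipy 1.17.1, numpy 2.4.6 and pandas 2.3.3 under Python 3.11.15, with matplotlib 3.10.9 for figures.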

Additional observations from a re-analysis of the deposited data

How the results depend on the processing

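Of 117 values under other settings, 99 stayed within the interval of the reported value, or within 1.5 times for counts and covered shares. Several settings left out 1 chromosome and kept most of the same peaks, so this tally is no measure of stability. The allowance of 1.5 times also takes in clear changes with the chaining distance. Chains within 20 kb gave 7 groups with 244 peaks, covered to 31.3%. Chains within 100 kb gave 10 groups with 429 peaks, covered to 16.4%, against 22.7% at 50 kb. A minimum of 10 peaks gave 17 groups. When peaks were joined over gaps of at most 1 kb, 3 groups with 92 joined peaks were found, 42.4% of them 1 kb or longer and with a median spacing of 5200 bp, since joining leaves fewer and longer peaks. With only peaks at or above the list's median score, group peaks numbered 155, with a median length of 903 bp, 357 bp above the outside. Their median score was 119, their median spacing 3033 bp, and 43.2% were 1 kb or longer. The score difference went from 13.6 to -0.96 there. The interval of the group median, less a fixed outside median, ran from -10.96 to 24.17, so the sign of the difference is not resolved. Intervals of the differences leave out the error of the outside median. Without chromosome 13, 208 peaks were left, with a median of 762 bp, 329 bp above the outside, a score of 98.2, 20.6 above it, and 33.7% of 1 kb or longer. The share of 1 kb or longer outside the groups was not computed under these settings. The shares given here therefore have no background of their own setting. The length difference of 238 bp kept its sign in all settings, from 193 bp (chains within 100 kb) to 357 bp. Joined peaks carried no score, so joining gave no score difference. In all other settings but the one named the score difference kept its sign, and it ranged from 6.91 (chains of at least 30 peaks) to 20.6. No paired analysis was possible because each arm had 1 library and the list gives no value per sample. Read depth is unknown, so weaker peaks inside or between the groups may have gone uncalled.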
